A study of Mus musculus with 6 samples.

Results

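The genes described here are the mouse zinc finger genes whose symbols run from Zfp600 to Zfp999, with an optional letter after the number. They were chosen by symbol alone from the deposited table of read counts, and 184 of the 22116 named genes in that table carried such a symbol. The number range was nevertheless proposed with results of this comparison in view, so the fold changes of these genes are given as a description, without a p–value. Counts came from RNA–seq of 4T1 cells, an established mouse mammary carcinoma line used as a model of triple–negative breast cancer. The cells received either DMSO, the vehicle, or 10 µM P3FI–90, an inhibitor of the histone demethylase KDM3B, for 24 h. Each group had 3 libraries, and all 6 libraries came from the same line, so the data describe 1 cell line at 1 dose and 1 time. The labels do not say whether the libraries of a group came from separate cultures, so the errors cover the spread between these libraries only.

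Most C2H2 zinc finger proteins bind DNA through tandem fingers, each of which reads a few bases. Many carry a KRAB domain at the amino terminus, which recruits TRIM28 (KAP1) and, through it, the H3K9 methyltransferase SETDB1, HP1 proteins and the NuRD deacetylase complex. The genes lie in clusters of tandem copies that differ between mouse strains and species, and several bind endogenous retroviruses and other retroelements. KDM3B removes methyl groups from H3K9, the residue that this machinery methylates.

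Counts on named genes summed to between 31327094 and 37395732 per library. Expression is given as normalized counts, that is, counts divided by the TMM–adjusted size of their library in edgeR and brought back to the mean of those sizes. Of 8 epithelial markers, all were detected and all were lower after P3FI–90, where 39.4% of all genes tested were lower. Their summed level was 158550 to 167270 normalized counts in DMSO and 69072 to 72322 after P3FI–90. In bulk RNA, fewer cells of a type and less RNA per cell cannot be told apart. Of the receptor genes, Pgr was at 0 in every library. Esr1 had 272, 293 and 313 normalized counts in DMSO and 303, 312 and 271 after P3FI–90. Erbb2 went from 2854, 2611 and 2645 to 1203, 1133 and 1206, a log2 fold change of −1.20 ± 0.05 (SE of the fit). The 6 leukocyte markers summed to between 368 and 434 normalized counts in the DMSO libraries and between 279 and 405 in the treated ones, most of it from the myeloid marker Cd68. Ptprc reached 24.3 normalized counts, Lyz2 reached 16.2, and the T cell marker Cd3e and the myeloid marker Itgam stayed at or below 4.05. The 3 endothelial markers summed to at most 13.3 normalized counts in DMSO and to between 21.6 and 26.4 in treated cells. The sum over 4 fibroblast markers, nearly all from Pdgfra, lay between 1411.5 and 1438 in DMSO and between 972 and 1065 in treated cells. Of the 2 muscle markers Acta1 and Myh6, the first DMSO library held 177 normalized counts in sum and the other DMSO libraries 0. The P3FI–90 libraries held between 11.7 and 19.6, all of it from Acta1. Without the first DMSO library 88 of the Zfp600 to Zfp999 genes were higher and 15 lower (median log2 fold change 0.55). The part of these marker signals in the other results was not tested.

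Of the 184 genes, 144 had enough counts for edgeR's default filter and 40 did not. Among the 40, a total of 22 were at 0 in every library and 18 had between 1 and 39 counts in sum. The level that the filter asks for was reached in every library of both groups by 141 genes. In 2 genes, Zfp811 and Zfp976, it was reached in every P3FI–90 library but not in every DMSO library. Both are named here after their values were seen. Zfp708 passed through 1 DMSO and 2 P3FI–90 libraries.

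P3FI–90–treated cells had more reads on this gene range in every library. In sum the 184 genes had 97372, 99289.6 and 98423 normalized counts in the DMSO libraries and 133315, 131858 and 133748 in the P3FI–90 libraries. The groups did not overlap, and the genes held 0.257% to 0.263% of all counts in DMSO and 0.405% to 0.411% after P3FI–90. Against the DMSO mean, the median log2 ratio over the tested genes was −0.02 to 0.01 in the DMSO libraries and 0.54 to 0.56 in the P3FI–90 libraries.

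Gene by gene, 94 of the 144 tested genes (65.3%) were higher after P3FI–90, 14 (9.72%) were lower and 36 were neither, where a call means that edgeR's quasi–likelihood test gave an adjusted p under 0.05. Calls in either direction covered 108 of the 144, against 79.3% of all genes. Over all 12288 genes tested, 39.9% were higher and 39.4% lower. The median log2 fold change was 0.54 over the zinc finger genes, with quartiles at 0.07 and 0.85, against 0.01 over all genes. The changes were mostly small. Of the 144 genes, 22 were higher with a log2 fold change over 1, as were 12.7% of all genes tested. Only 2 of the 144 were lower with one under −1, as were 10.6% of all genes tested. All 3 P3FI–90 libraries lay above all 3 DMSO libraries for 95 of these genes, against 41% of all genes, and below them for 16, against 40.2%. Since the range was proposed from this contrast, nothing is read from these shares.

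**Figure D1:**
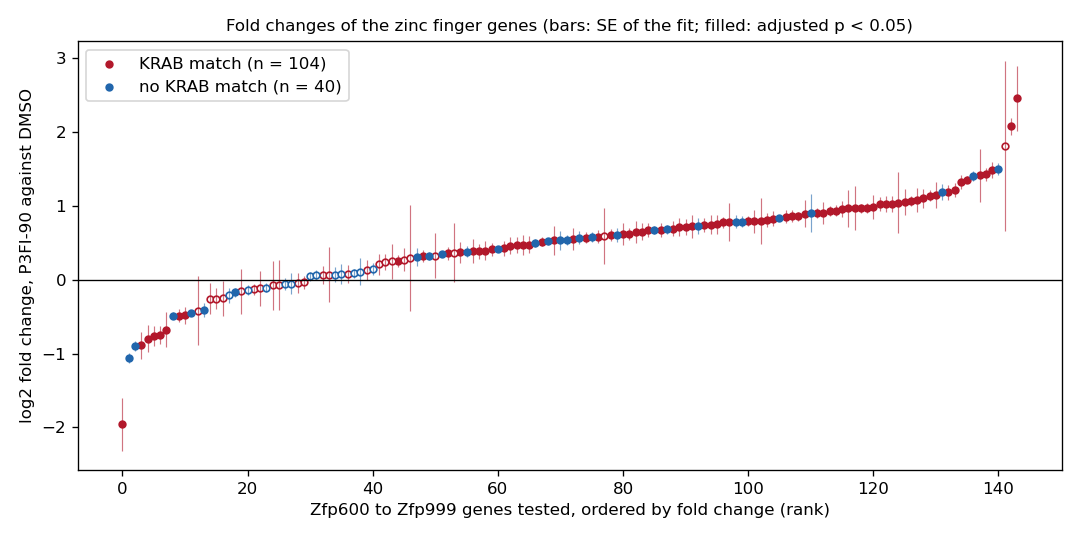
The log2 fold changes of the 144 tested genes (vertical axis, P3FI–90 against DMSO) are plotted by rank, with the SE of the fit as bars. Red marks genes with a KRAB match and blue those without, and filled points passed the test. The points run from −1.95 to 2.45, and 94 filled points lie above 0 against 14 below.

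Scaling moves the level of these values. With libraries scaled to their total counts alone, the median over all genes rose by 0.21 on the log2 scale (6179 genes higher and 3641 lower, against 4908 and 4841), and of the zinc finger genes 104 were higher and 11 lower (median 0.76). With a trend in transcript length and GC content removed, 84 were higher and 20 lower (median 0.46), and the median of all genes was −0.02.

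The largest rises were shared between KRAB genes and others. Among genes with at least 50 normalized counts on average and no overlap between groups, the largest was in Zfp941 (ENSMUSG00000060314), a KRAB gene with 9 fingers on chromosome 7. It had 171, 160.2 and 137 normalized counts in DMSO and 663, 664 and 639.7 after P3FI–90, which is 4.2–fold or 2.07 ± 0.11 on the log2 scale (SE of the fit, n = 3 per group). All treated libraries stood far above all controls. Zfp623 (ENSMUSG00000050846), with 12 fingers and no KRAB match, rose from 1024, 853 and 1047 to 2775, 2938 and 2546 normalized counts, a log2 fold change of 1.50 ± 0.08. Zfp654 (ENSMUSG00000047141), which has 5 fingers and no KRAB match, rose from 770.1, 869.5 and 809 to 2294, 2011 and 2152 normalized counts, a log2 fold change of 1.40 ± 0.07. Neither gene shares a 50–base transcript window with another annotated gene.

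Zfp938 (ENSMUSG00000062931), a KRAB gene on chromosome 10, rose from 254, 350.5 and 296 to 848, 849 and 809 normalized counts, or 1.48 ± 0.11 on the log2 scale. Zfp959 (ENSMUSG00000003198), a KRAB gene on chromosome 17, rose from 267, 297 and 318 to 735, 735 and 738 normalized counts, a log2 fold change of 1.32 ± 0.09. The treated libraries of Zfp959 were nearly equal. At low counts the spread was wider. Zfp709 (ENSMUSG00000056019), a KRAB gene with 18 fingers, had 52.6, 14.5 and 58.2 normalized counts in DMSO and 126, 92.6 and 119.5 in treated cells, a log2 fold change of 1.41 ± 0.36, with its second DMSO library well under the others. The highest fitted value of all was that of Zfp811 (ENSMUSG00000055202), which is under the limit of 50 normalized counts. It had 6.07, 19.3 and 7.14 normalized counts in DMSO and 44.9, 56.6 and 72.5 after P3FI–90, a log2 fold change of 2.45 ± 0.45.

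Some paired copies rose side by side, though part of their sequence also occurs in other genes, which need not be the other copy. Zfp729b (ENSMUSG00000058093), whose protein has 30 fingers, rose from 377, 461 and 407 to 1175, 1098 and 1058 normalized counts, a log2 fold change of 1.42 ± 0.09. The log2 fold change of its neighbour Zfp729a was 1.21 ± 0.10. Of their 50–base transcript windows, 40.8% in Zfp729b and 13.7% in Zfp729a also occur in other genes, and both overlap the gene model Gm49345. Zfp955b (ENSMUSG00000096910) rose from 1701, 1755 and 1683 to 4396, 4257 and 4461 normalized counts, a log2 fold change of 1.35 ± 0.04, and that of Zfp955a was 0.97 ± 0.07. In this pair 50.6% and 52.0% of the windows are shared, most often with each other, so the split of reads between them is uncertain. Zfp874a and Zfp874b had log2 fold changes of 0.98 ± 0.16 and 0.72 ± 0.16. The pair Zfp607a and Zfp607b on chromosome 7 did not rise. Their log2 fold changes were −0.25 ± 0.24 and 0.07 ± 0.37, and neither gene passed the test. Zfp607a, Zfp607b, Zfp729a, Zfp955a, Zfp874a and Zfp874b were chosen after their values were seen.

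**Figure D2:**
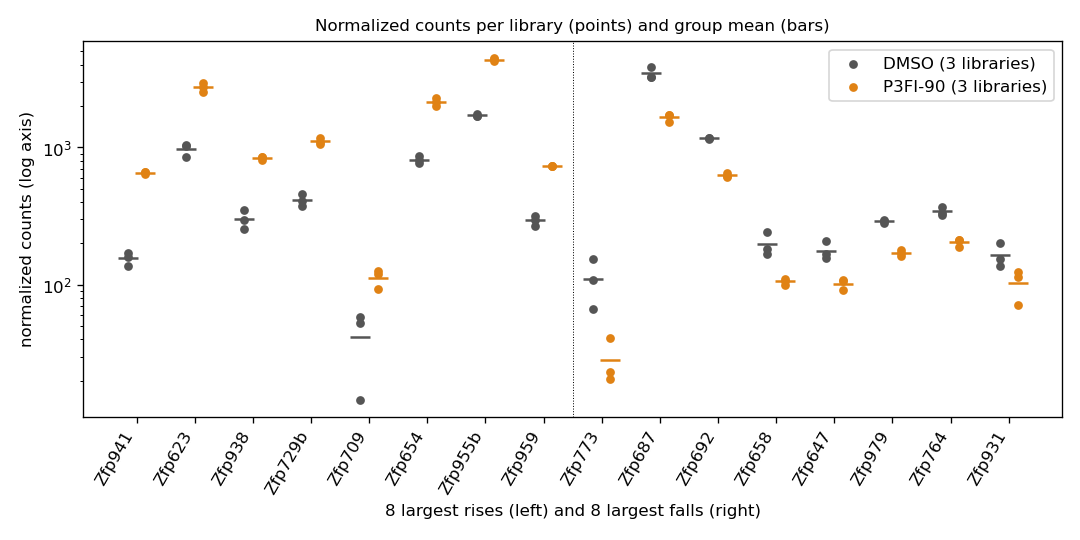
Normalized counts of each library (points, log axis) and group means (short bars) are shown for the 8 largest rises and the 8 largest falls, with DMSO in grey and P3FI–90 in orange. The groups do not overlap for any of the 16 genes, as the choice of genes required, and the points are most spread for Zfp709 and Zfp773, which have the lowest counts.

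The DNA ahead of the start of 6 of these genes is shown because the motif CCAAT, which the choice by symbol did not use, was frequent there among KRAB genes of the range. Sequences are from RefSeq promoter windows on build GRCm38.p6, which was not the build of the count table (GRCm39). Each gives the 150 bases before the annotated start, 5′ to 3′ on the strand of the gene, so it lies upstream of the annotated transcript, and capitals mark CCAAT or its reverse complement ATTGG. The first 4 belong to genes among the largest rises, and Zfp773 is the largest fall. Zfp809 is a known repressor of retroviruses and also rose, with a log2 fold change of 0.96. The windows are chr7:140822179-140822328 on the minus strand for Zfp941, chr10:82241281-82241430 on the minus strand for Zfp938, chr17:33289394-33289543 on the plus strand for Zfp955b, chr17:55891943-55892092 on the plus strand for Zfp959, chr7:7136756-7136905 on the minus strand for Zfp773 and chr9:22225553-22225702 on the plus strand for Zfp809.
Zfp941: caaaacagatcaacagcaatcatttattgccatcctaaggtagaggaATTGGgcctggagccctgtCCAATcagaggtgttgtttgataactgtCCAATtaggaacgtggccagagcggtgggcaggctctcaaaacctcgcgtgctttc
Zfp938: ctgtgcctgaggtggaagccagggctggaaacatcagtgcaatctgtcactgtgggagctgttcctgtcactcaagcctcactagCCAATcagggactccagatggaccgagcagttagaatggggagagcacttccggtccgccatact
Zfp955b: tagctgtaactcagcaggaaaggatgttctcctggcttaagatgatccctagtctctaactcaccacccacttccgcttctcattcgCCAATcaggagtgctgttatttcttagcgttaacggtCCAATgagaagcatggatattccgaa
Zfp959: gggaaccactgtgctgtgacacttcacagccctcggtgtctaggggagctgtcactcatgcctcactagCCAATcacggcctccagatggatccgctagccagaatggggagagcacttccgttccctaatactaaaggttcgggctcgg
Zfp773: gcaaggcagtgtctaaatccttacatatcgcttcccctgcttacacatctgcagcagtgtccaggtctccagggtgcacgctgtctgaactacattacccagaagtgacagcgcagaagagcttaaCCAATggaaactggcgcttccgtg
Zfp809: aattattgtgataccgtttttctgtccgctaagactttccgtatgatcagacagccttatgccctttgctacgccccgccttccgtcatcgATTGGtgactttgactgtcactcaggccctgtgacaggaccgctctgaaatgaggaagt

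All 6 stretches held at least 1 copy, and Zfp941 held 3. The 6 genes were picked by hand, and other large rises among KRAB genes, Zfp729b and Zfp709, are not shown. No share is therefore read from the 6. Zfp938 and Zfp959 lie on different chromosomes but share an identical run of 21 bases in these stretches, and the longest identical run that includes their CCAAT has 17 bases. The whole 300–base windows of Zfp955a and Zfp955b, from 250 bases before the start to 50 after it, were identical.

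Over the range, 153 of the 184 genes had at least 1 window of 300 bases in the RefSeq table. CCAAT on either strand was found in 85 of 130 promoters (65.4%) of KRAB genes of the range, in 17 of 52 (32.7%) of those without a KRAB match and in 37.4% of all 32851 promoters in the table. Among KRAB genes numbered below Zfp600 the share was 37.1%. The longer word CCAATCA, which contains CCAAT and was counted on both strands, was chosen after the frequent words in these promoters were seen. It was found in 39.2% of the promoters of KRAB genes of the range, 15.5% of those of lower–numbered KRAB genes and 7.82% of all promoters. By response, CCAAT was in 62.3% of the promoters of KRAB genes that were higher after P3FI–90, 68% of those that were neither and 68.2% of those below the filter. Only 6 promoters belonged to KRAB genes that were lower, and 5 held it. The GC box GGGCGG was in 35.4% of promoters with and 55.8% without a KRAB match, against 35.7% of all, with overlap between the motifs not removed. TATAAA was in 3.85% and 7.69%, against 13.6% of all. Many of these promoters are copies of each other, so they are not independent, and a match is a string of letters and not a binding site.

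The falls were fewer, and Zfp773 and Zfp687 alone passed a log2 fold change of −1. Zfp773 (ENSMUSG00000063535), a KRAB gene with 8 fingers, had 109, 155 and 66.3 normalized counts in DMSO and 20.6, 23.4 and 41.1 after P3FI–90, a log2 fold change of −1.95 ± 0.36. It is a gene of low counts with a wide spread in both groups. Zfp687 (ENSMUSG00000019338), which forms a chromatin complex with ZMYND8 and ZNF592, fell from 3843, 3265 and 3283 to 1714, 1721 and 1545 normalized counts, a log2 fold change of −1.06 ± 0.07. Its exons overlap those of Pi4kb on the other strand, and since the strandedness of the counting is not given in the sources used here, reads of the pair cannot be told apart. Zfp692 (ENSMUSG00000037243) fell from 1177, 1179 and 1156 to 608, 655 and 616 normalized counts, a log2 fold change of −0.90 ± 0.07.

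The rest of the 8 falls chosen by size were of KRAB genes at lower levels. Zfp658 (ENSMUSG00000056592), with 21 fingers, went from 181, 241 and 168 to 100.1, 111 and 107 normalized counts, a log2 fold change of −0.89 ± 0.19. Zfp647 (ENSMUSG00000054967) went from 158, 208 and 166 to 108, 106 and 91.1, and its log2 fold change was −0.80 ± 0.19. Zfp979 (ENSMUSG00000066000) went from 282, 291 and 296 to 163, 171 and 178, and Zfp764 (ENSMUSG00000045757) from 369, 323 and 336 to 188, 210.4 and 213, with log2 fold changes of −0.76 ± 0.13 and −0.75 ± 0.13. None of these groups overlapped. The smallest of the 8 was Zfp931 (ENSMUSG00000078861), with 155, 201 and 138 normalized counts in DMSO and 113, 71.0 and 124 after P3FI–90, and a log2 fold change of −0.68 ± 0.23. Its call was lost without the second DMSO library (adjusted p = 0.0748), without the second P3FI–90 library (adjusted p = 0.0672) and with libraries scaled to total counts (adjusted p = 0.0832), by the same edgeR test.

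A KRAB A box was found by a pattern in the translated coding sequence of 131 of the 184 genes, and not in 53. How many boxes the pattern missed was not measured, so the genes without a match may include KRAB genes. The genes with a match had a median of 12 fingers and those without a median of 7, among those tested. KRAB genes were expressed at lower levels, with a median of 279 normalized counts in DMSO against 974 for the others. Of the 104 KRAB genes tested, 72 (69.2%) were higher and 8 (7.69%) lower (median log2 fold change 0.63). Of the 40 others, 22 (55%) were higher and 6 (15%) lower (median 0.33). Summed over the KRAB genes, the DMSO libraries held 39933, 43417 and 41385 normalized counts and the P3FI–90 libraries 67816, 66260.4 and 68265. The sum over the others was 57439, 55873 and 57038 in DMSO and 65499.7, 65598 and 65483 after P3FI–90. In both sums the treated libraries lay above the controls, by more for the KRAB genes. With the length and GC trend removed the medians were 0.57 and 0.15, and 10 of the genes without a KRAB match were lower instead of 6. The difference between the 2 kinds of gene was not tested.

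The zinc finger genes numbered below 600 were not part of the choice. They showed the same order of medians, but nearly equal shares of calls with and without a KRAB match. Of 214 such genes, 188 were tested, 106 (56.4%) were higher and 34 (18.1%) lower (median log2 fold change 0.46). Those with a KRAB match had a median of 0.64 (92 genes, 52 or 56.5% higher and 16 or 17.4% lower). Those without one had a median of 0.30 (95 genes, 53 or 55.8% higher and 18 or 18.9% lower). Within the range 69.2% and 55% were higher. The medians of all tested genes on the 2 sides of the limit at 600 were thus 0.46 and 0.54. Just inside it, Zfp600 had at most 3.04 normalized counts in any library and was not tested, and Zfp605 had a log2 fold change of 1.05 ± 0.18. Just outside, Zfp598, a ubiquitin ligase that marks collided ribosomes, had 4876, 4248 and 4563 normalized counts in DMSO and 9862, 10218 and 9994 after P3FI–90, and Zfp599 had a log2 fold change of −0.25 ± 0.09. At the upper limit Zfp998 and Zfp999 were at 0 in every library, Zfp1000 had at most 3.74 normalized counts and Zfp1001 a log2 fold change of 0.29 ± 0.12. The call of Zfp1001 was lost when any DMSO library or the third P3FI–90 library was left out, and with upper quartiles (adjusted p = 0.0736 in edgeR). The call of Zfp599 was lost without the second DMSO library and with total counts, where its log2 fold change was −0.04 (adjusted p = 0.686 in edgeR).

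**Figure D3:**
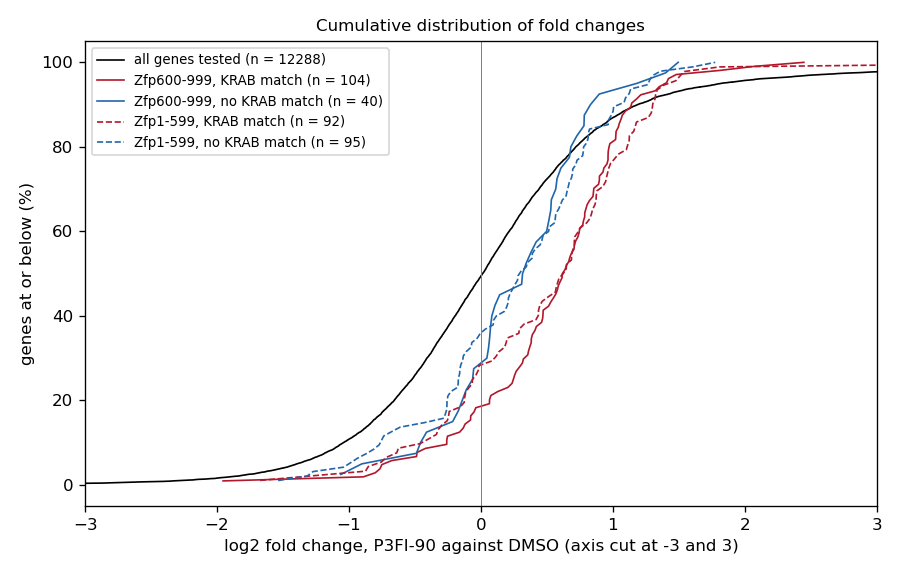
The share of genes at or below each log2 fold change (horizontal axis, without the few genes beyond its ends) is shown for all genes tested in black, for Zfp600 to Zfp999 as solid lines and for Zfp1 to Zfp599 as dashed lines, in red with and in blue without a KRAB match. The red lines lie to the right of the blue ones over most of the range, with medians of 0.63 and 0.64 against 0.33 and 0.30, and all 4 cross 50% to the right of the black line at 0.01.

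Levels can be compared between genes per kilobase of transcript, taken as the longest annotated one, which need not be the one expressed. On that scale the most abundant genes were not the typical KRAB genes. Zfp706, which encodes a small protein with a single finger and has been tied to the exit from stem cell self–renewal, had 2011 normalized counts per kb in DMSO and 1464 after P3FI–90. It fell from 8822, 9072 and 8748 to 6841, 6140.3 and 6416 normalized counts, a log2 fold change of −0.46 ± 0.04. Zfp664 followed with 1319 per kb in DMSO and 1763 after P3FI–90, and became the most abundant of the 5. Zfp740 had 877 and 625 per kb, and Zfp639 had 676 and 697. Zfp869 was the one KRAB gene among the 5, with 773 per kb in DMSO and 1103 after P3FI–90, and a log2 fold change of 0.51 ± 0.06. The groups of Zfp639 overlapped, and its log2 fold change of 0.05 ± 0.06 turned to −0.01 without the first DMSO library and was 0.26 with a call when libraries were scaled to total counts.

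Among genes with known roles in retroelement control, Zfp809 (ENSMUSG00000057982) is the KRAB protein that recruits TRIM28 to the primer binding site of murine leukaemia viruses. It rose from 369, 311 and 429 to 717, 718 and 722 normalized counts, a log2 fold change of 0.96 ± 0.11. The treated libraries were nearly identical and well above the controls. Zfp932, which binds endogenous retroviruses together with its paralogue Gm15446, had 798, 680.5 and 672 normalized counts in DMSO and 874, 894 and 909 after P3FI–90, a log2 fold change of 0.31 ± 0.08. Since 45.2% of its windows are shared, most often with Gm15446, its value is uncertain. Zfp638 (NP220), which silences unintegrated retroviral DNA with the HUSH complex, went from 2582, 2546 and 2609 to 3773, 3649 and 3631 normalized counts, a log2 fold change of 0.51 ± 0.04. With the length and GC trend removed this was 0.03 ± 0.04 and no longer passed the test.

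Zfp708, which binds the retroelement RMER19B, could not be measured with these counts. It had 0, 54.2 and 0 normalized counts in DMSO and 58.9, 119 and 0 after P3FI–90, and all of its windows occur in other genes. Its log2 fold change of 1.81 ± 1.15 did not pass the test in the full set. It did so with the replicate number as a block (adjusted p = 0.0368) and without the second DMSO library (adjusted p = 0.0039) or the third P3FI–90 library (adjusted p = 0.0327), by the same edgeR test. Zfp819, a KRAB protein of germ and stem cells, had 4.5 normalized counts in 1 P3FI–90 library and 0 in all others.

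Zfp644, Zfp827, Zfp609 and Zfp703, which act in chromatin and transcription complexes and had no KRAB match, were higher. Zfp644, a partner of the H3K9 methyltransferases G9a and GLP, went from 1751, 1966 and 1794 to 2625, 2499 and 2655 normalized counts, a log2 fold change of 0.50 ± 0.06. Zfp827, which brings the NuRD complex to telomeres, had a log2 fold change of 0.67 ± 0.06, and Zfp609, which acts with the Integrator complex, one of 0.83 ± 0.04. Zfp703, a co–repressor whose human counterpart is amplified in luminal breast cancer, went from 977, 925 and 1021 to 1574, 1633 and 1483 normalized counts, a log2 fold change of 0.68 ± 0.06. The groups did not overlap in any of these 4 genes. Zfp652, which represses with ETO–family proteins, had a log2 fold change of 0.34 ± 0.04 that turned to −0.14 with the length and GC trend removed. Zfp704, from a transcript of 13834 bases, had one of 0.08 ± 0.06 that turned to −0.49 in that setting and was 0.30 with total counts, each with a call.

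The remaining genes on the list of roles spread to both sides. Zfp667 (Mipu1) had 91.1, 107 and 77.6 normalized counts in DMSO and 183, 213 and 212 after P3FI–90, a log2 fold change of 1.14 ± 0.18, and Zfp800 had one of 0.53 ± 0.07. Zfp622, an export factor of the large ribosomal subunit, had 1751, 1659.6 and 1741 normalized counts in DMSO and 1410.1, 1610.4 and 1555 after P3FI–90, a log2 fold change of −0.17 ± 0.06. That small fall turned to 0.04 with libraries scaled to total counts and lost its call without the first P3FI–90 library (adjusted p = 0.0932 in edgeR). Zfp746 (PARIS, a repressor of PGC–1α) at −0.14 ± 0.07, Zfp830, a splicing factor, at 0.14 ± 0.08, and Zfp668 at 0.07 ± 0.14 did not pass the test. Zfp830 passed it at 0.36 with total counts (adjusted p = 0.000538 in edgeR) and at 0.26 with the length and GC trend removed (adjusted p = 0.0047 in edgeR). Zfp746 passed it as lower with upper quartiles (adjusted p = 0.0228 in edgeR) and without the third DMSO library (adjusted p = 0.0255 in edgeR), and turned to 0.07 with total counts. Zfp668 turned to −0.06 without the second DMSO library, to −0.02 without the first P3FI–90 library and to −0.11 with the trend removed. Zfp668 and Zfp646 overlap on opposite strands. Zfp618, a partner of UHRF2, was at 0 in every library, and Zfp711 had at most 2.41 normalized counts. Of the 20 genes on this list, 10 were higher, 2 lower (Zfp622 and Zfp706), 5 neither and 3 below the filter, against 39.9% higher and 39.4% lower over all genes tested.

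Genes of the range were found on 20 chromosomes, most on chromosomes 7 (38 genes), 17 (24) and 4 (20). Over the whole range 65.3% of the tested genes were higher and 9.72% lower, and over all genes 39.9% and 39.4%. Many genes on chromosome 17 lie in runs of neighbours, with 12 and 8 genes tested. Chromosome 17 had 19 of 22 tested genes higher and 1 lower (median log2 fold change 0.76), and chromosome 8 had 13 of 16 higher and 0 lower (median 0.68). On chromosome 7, 19 of 34 tested genes were higher and 3 lower (median 0.38). Chromosome 15 ran the other way: 2 of its 6 tested genes were higher and 4 lower (Zfp622, Zfp647, Zfp706 and Zfp740), with a median of −0.31. Only 2 of the 7 genes on chromosome 15 had a KRAB match.

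Runs of 5 or more genes of the range with gaps under 500 kb, read from the GENCODE M21 annotation, also differed. Their counts stand beside 65.3% higher and 9.72% lower over the range, and 39.9% and 39.4% over all genes. A run of 10 KRAB genes on chromosome 13, with Zfp729a and Zfp729b in it, had 7 genes higher and 0 lower and a median log2 fold change of 0.82. Of the runs on chromosome 17, that of 8 genes with Zfp955a and Zfp955b had 7 higher and 0 lower (median 0.81). The other, of 14 genes, had 10 higher and 1 lower (median 0.66). Medians were lower in the runs on chromosomes 7 and 8. On chromosome 7, a run of 6 genes had 4 higher and 0 lower (median 0.47). A run of 8 genes there, 5 of them tested, had 2 higher and 1 lower (median 0.29). The run of 9 genes there had 5 higher and 1 lower (median 0.32). On chromosome 8, a run of 6 genes had 4 higher and 0 lower (median 0.38). In the run of 17 KRAB genes on chromosome 4 only Zfp979, Zfp984 and Zfp933 passed the filter. Of the 17, 16 shared at least 10% of their windows with other genes, so low expression and reads lost to near copies cannot be told apart. Within that run Zfp979 fell, Zfp984 rose with a log2 fold change of 0.90 ± 0.07 and Zfp933 had one of 0.24 ± 0.11 that did not pass the test. Genes of a run are copies of each other and may share reads. Zfp984 and Zfp933 were named after their values were seen.

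**Figure D4:**
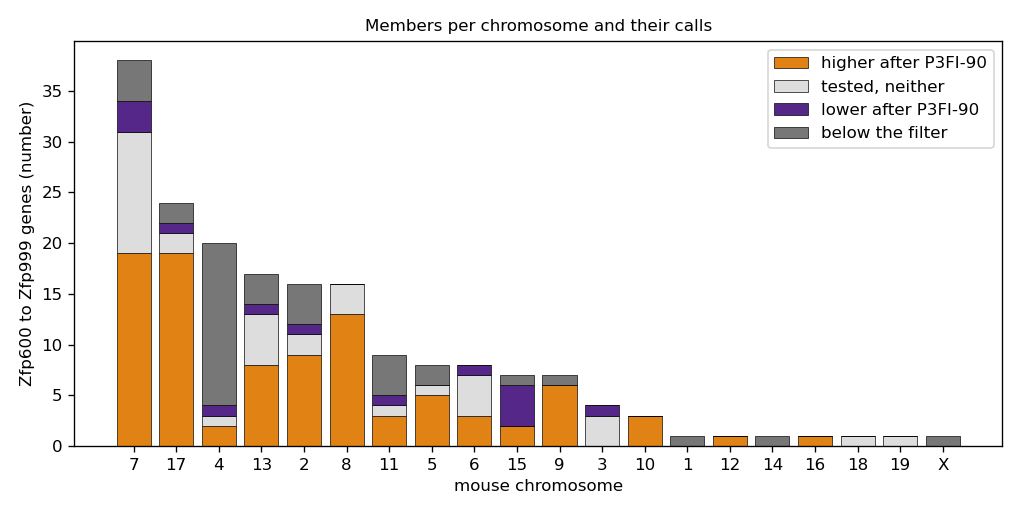
Stacked bars give the number of Zfp600 to Zfp999 genes on each mouse chromosome, split into those higher after P3FI–90 (orange), tested and neither (light grey), lower (purple) and below the filter (dark grey). Orange makes up 19 of 24 genes on chromosome 17, whereas 16 of 20 genes on chromosome 4 were below the filter.

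The number of fingers and the make–up of the transcript were set beside the fold changes as a description. Across the 144 tested genes, which share the same 6 libraries, Spearman's rho with the log2 fold change was −0.27 for GC content, 0.18 for the number of fingers, 0.00 for transcript length and 0.06 for the share of windows found in other genes. Over all genes with an annotation (12263) rho was −0.13 for GC content and 0.23 for length. The tested genes of the range had a median GC content of 42.0%, against 49.8% over all genes. Those with 0 to 5 fingers had a median log2 fold change of 0.23 (18 genes, 3 with a KRAB match) and those with 11 to 15 one of 0.64 (45 genes, 40 with a KRAB match). The 48 genes that share at least 10% of their windows had a median of 0.64 and the other 96 one of 0.51. The 31 genes whose exons are overlapped on the other strand had a median of 0.32, against 0.61 for the other 113. Of the genes named, Zfp605, Zfp639, Zfp646, Zfp652, Zfp687, Zfp703, Zfp704, Zfp706, Zfp740, Zfp800, Zfp874b and Zfp955b have such an overlap beside Zfp668. The share of windows found in other genes was 12.9% for Zfp773, 16.7% for Zfp931, 21.3% for Zfp959, 24.6% for Zfp979 and 27.6% for Zfp764, so their values are uncertain to that extent. What part each of these properties had in the fold changes was not tested.

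KRAB proteins act through TRIM28 and its partners, and a list of 34 genes of that machinery and of H3K9 methylation and DNA methylation was followed in the same fit. All 34 were tested, 17 (50%) were higher and 14 (41.2%) lower, near the 39.9% and 39.4% of all genes. The list was written with earlier results of these data known. With the length and GC trend removed the counts were 10 higher and 16 lower. Trim28 itself had 15895, 15339 and 16053 normalized counts in DMSO and 13222.5, 12945 and 13544 after P3FI–90, a log2 fold change of −0.25 ± 0.03 (adjusted p = 5.86e-06, edgeR's quasi–likelihood test) that was −0.04 ± 0.03 with libraries scaled to total counts. Setdb1 had 4022, 3908 and 4044 normalized counts in DMSO and 4344.5, 4441 and 4625 after P3FI–90, a log2 fold change of 0.16 ± 0.04 (adjusted p = 0.0014, edgeR's quasi–likelihood test), which turned to −0.06 with the length and GC trend removed. Both changes were small beside those of several other genes on the list.

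Larger changes lay around that core. Resf1, a cofactor of SETDB1 in retrovirus silencing, rose from 1519, 1537 and 1536 to 6175, 6197 and 6011 normalized counts, a log2 fold change of 2.00 ± 0.04 (adjusted p = 2.51e-14, edgeR's quasi–likelihood test). Cbx3, which encodes HP1γ, fell from 7742, 7665 and 7529 to 3669.9, 3686 and 3458 normalized counts, a log2 fold change of −1.08 ± 0.04, whereas Cbx1 (HP1β) at 0.05 ± 0.03 did not pass the test. With total counts Cbx1 was at 0.26 and passed it (adjusted p = 7.31e-06 in edgeR). Cbx5 (HP1α) had a log2 fold change of 0.32 ± 0.04, which turned to −0.13 with the length and GC trend removed. The NuRD genes Hdac1 at −0.75 ± 0.04, Chd4 at −0.58 ± 0.03 and Chd3 at −0.36 ± 0.03 were lower. The HUSH genes Mphosph8 at 0.53 ± 0.05 and Tasor at 0.53 ± 0.06 were higher, and Pphln1 at 0.01 ± 0.06 was neither. With the length and GC trend removed Tasor was at 0.10 and lost its call (adjusted p = 0.122 in edgeR), and with total counts Pphln1 was at 0.22 and gained one (adjusted p = 0.0023 in edgeR). G9a (Ehmt2) at −0.67 ± 0.03 and GLP (Ehmt1) at −0.32 ± 0.04 were lower, while their partner Wiz at 0.87 ± 0.04 was higher.

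The list held 5 H3K9 demethylase genes, of which Kdm3a, Kdm4a, Kdm4b and Kdm4c were higher and Kdm3b was higher by a small margin. Kdm3a rose from 2671, 2659 and 2778 to 6948, 6697 and 7239 normalized counts, a log2 fold change of 1.36 ± 0.04 (adjusted p = 9.44e-13, edgeR's quasi–likelihood test). Kdm4c had one of 1.03 ± 0.06, Kdm4b one of 0.75 ± 0.05 and Kdm4a one of 0.52 ± 0.06. Kdm3b, whose protein P3FI–90 inhibits, had 2791, 2924 and 2839 normalized counts in DMSO and 3049, 3159.6 and 3119 after P3FI–90, a log2 fold change of 0.13 ± 0.04 (adjusted p = 0.0169, edgeR's quasi–likelihood test) whose call was lost with libraries scaled to upper quartiles and when the first DMSO, the second P3FI–90 or the third P3FI–90 library was left out. It turned to −0.07 with the length and GC trend removed. An inhibitor of the enzyme need not change its transcript, so this gene does not check the labels.

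**Figure D5:**
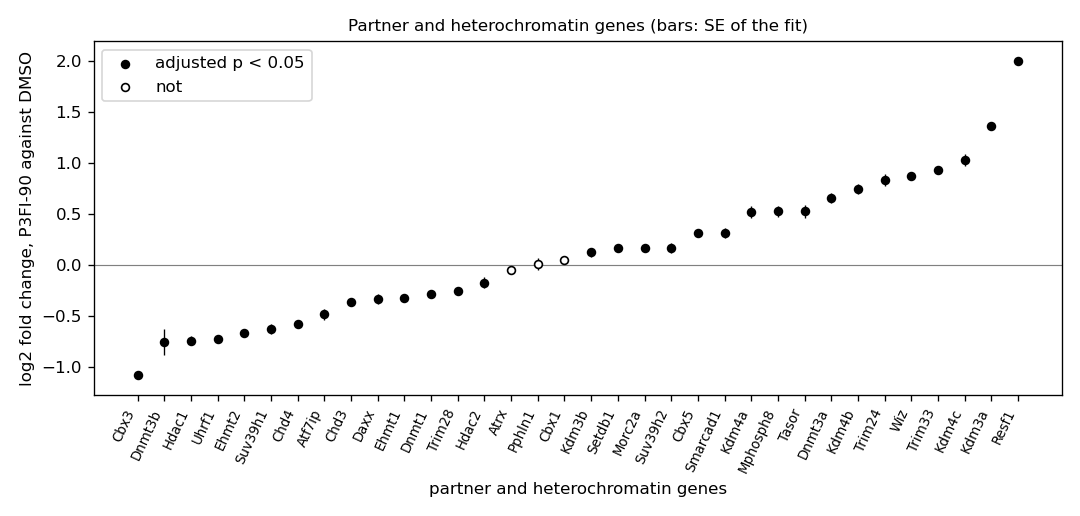
The log2 fold changes (P3FI–90 against DMSO) of the 34 partner and heterochromatin genes are ordered from lowest to highest, with the SE of the fit as bars and filled points for an adjusted p under 0.05. They run from −1.08 for Cbx3 to 2.00 for Resf1, with 14 filled points below 0 and 17 above it.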

How the data were processed

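RNA–seq reads were counted per gene by the authors and deposited as whole–number read counts without normalization. The submitters' processing notes name CASAVA, HISAT2, StringTie and GRCm39, without versions or roles, and strandedness is not given in the sources used here. Samples were grouped by their labels, 3 DMSO and 3 P3FI–90. The 285 rows of 22401 without a gene name were left out (0.483% to 0.556% of counts). Counts were filtered with filterByExpr, scaled by TMM and tested with edgeR 4.0.16 in R 4.3.3, with Benjamini–Hochberg adjustment over 12288 genes. Libraries of the same group differed from each other beyond counting noise (mean chi–square per gene 5.21 to 7.85), so none was taken for a second deposit of another.

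Length, GC content, neighbours, overlaps, shared 50–base windows, fingers and the KRAB A box (a pattern in the translated coding sequence) came from GENCODE M21, whose build differs from that of the counts, so none of its coordinates is printed. The members and lists were chosen with earlier results of these data known. Genes named are the 8 largest rises and 8 largest falls with at least 50 normalized counts on average and no overlap, the 5 highest DMSO levels per transcript length, 20 genes with known roles, any gene below the filter with counts in 1 group only (none had the 30 counts required) and the nearest numbers on each side of the limits. As alternatives, scaling used size factors of DESeq2, total counts or upper quartiles, and further runs used other filters, DESeq2 1.42.0, limma–voom (limma 3.58.1), unnamed rows kept, halved counts, a replicate block, each library left out, a trend in length and GC content removed with splines of 4 degrees of freedom, and subsets of the members. Scripts were tested on simulated data.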

Additional observations from a re-analysis of the deposited data

How the results depend on the processing

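Under none of the alternatives did a Zfp600 to Zfp999 gene called lower become called higher. With the length and GC trend removed, 83 of the 94 higher genes were still higher and 1 became lower with a call. With total counts, 11 of the 14 lower genes were still lower. The median log2 fold change over the 144 genes was 0.55 with DESeq2's size factors, 0.76 with total counts, 0.50 with upper quartiles, 0.55 with at least 10 counts in every library, 0.55 with DESeq2, 0.56 with limma–voom, 0.56 with halved counts and 0.46 with the trend removed. For KRAB genes it was 0.84 with total counts, 0.59 with upper quartiles, 0.66 with limma–voom, 0.65 with halved counts and 0.57 with the trend removed. For genes without a KRAB match it was 0.54 with total counts and 0.15 with the trend removed, where 10 were lower. For Zfp1 to Zfp599 it was 0.68 with total counts, where 22 were lower, and 0.31 with the trend removed. Of the partner list, 10 were higher with the trend removed. Among the 96 genes under 10% shared windows, 62 were higher and 9 lower, counts that are smaller since fewer genes were included. Their median was 0.51, against 0.64 for the 48 genes left out.

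Leaving out 1 library at a time gave 88 to 93 higher and 13 to 15 lower genes, with medians of 0.53 to 0.56 over the 144 genes, 0.61 to 0.66 over KRAB genes and 0.11 to 0.14 for Kdm3b. The log2 fold change of Kdm3b was 0.087 with upper quartiles and −0.073 with the trend removed. With the trend removed the sign also turned for Zfp652 (−0.14), Zfp668 (−0.11), Zfp704 (−0.49), Setdb1 (−0.062), Cbx5 (−0.13), Pphln1 (−0.059) and Morc2a (−0.041). With total counts it turned for Zfp622 (0.043), Zfp746 (0.073), Hdac2 (0.039) and Atrx (0.17), and with upper quartiles for Pphln1 (−0.031). Leaving out 1 library gave −0.015 to 0.086 for Zfp639, −0.059 to 0.19 for Zfp668 and −0.048 to 0.046 for Pphln1. The cause was not tested.

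Equal replicate numbers did not pair the libraries: the correlation across genes between the departures of same–numbered libraries from the mean of their group was −0.02, 0.02 and 0.00. With the replicate number as a block 93 genes of the range were higher and 14 lower, with a median of 0.54, and 72 KRAB genes were higher. The depth limits the 18 genes with 1 to 39 counts in sum, for which a change was not detectable, and genes with shared windows.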
